A study of Homo sapiens with 12 samples.

Results

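Long non-coding RNAs (lncRNAs) are transcripts without a known protein product, and many of them start beside a gene that encodes a developmental transcription factor. The 8 lncRNA genes described here are NR2F1-AS1, NKX2-1-AS1, FEZF1-AS1, ALDH1A3-AS1, DLX6-AS1, SIX3-AS1, SOX2-OT and EMX2OS. They were taken from the 58302 genes counted by RNA sequencing, and each was set beside the coding gene it is named after. The 8 genes were selected on their measured levels in these same samples, so their own values are given below as a description, with no test. The 8 coding genes entered as their named neighbours, and for these genes adjusted p-values are given. Many of them moved together with their lncRNA. The choice of the lncRNAs therefore carries over to these p-values and to the counts of called coding genes.

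RNA came from 12 samples of H1, a human embryonic stem cell (ESC) line, with 2 samples in each of 6 groups. The WT and dKO groups were compared as neural progenitor cells (NPCs), as NPC-P4, which are NPCs at passage 4, and as D28 cells. NPCs were made from ESCs with the SMAD inhibitors SB431542 and dorsomorphin and were grown as neural spheres with bFGF and EGF. The labels give no passage for the first NPC groups, and the study's text places them at passage 2. D28 cells are such NPCs after 28 days without these growth factors, in a medium that held GDNF, BDNF and cAMP. In dKO cells (JMJD3-/-/UTX-/Y in the study), JMJD3 (KDM6B) and UTX (KDM6A) lack the catalytic domain, and no other difference between dKO and WT cells is labelled. The dKO cells were made by removing the puromycin cassette of a JMJD3-/- line with Cre, targeting UTX and picking resistant clones, so a difference between genotypes cannot be told apart from a difference between clones. Nothing in the labels says that the samples of a group were separate cultures, so the p-values measure the spread between these samples, which may be technical.

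UTX and JMJD3 remove H3K27me3, a histone mark that Polycomb complexes place on silent developmental genes. Antisense lncRNAs beside such genes often share a promoter region with the coding gene or overlap its body. In the developing forebrain, the coding genes described here mark territories along the main axes. NKX2-1 and DLX6 encode homeodomain factors of the ventral forebrain, DLX6 in cells that become GABAergic neurons. EMX2 encodes a homeodomain factor of the dorsal forebrain, and FEZF1 and SIX3 encode factors of its most anterior part. NR2F1 (COUP-TFI) encodes a nuclear receptor that patterns the cortex, ALDH1A3 encodes an enzyme that makes retinoic acid, and SOX2 encodes a factor that keeps progenitors undifferentiated.

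In GENCODE v44 on GRCh38, 7 of the 8 lncRNAs lie on the strand opposite to their coding gene. SOX2-OT is the exception: it runs on the same strand as SOX2, spans 847119 bases and holds the whole SOX2 gene between its exons, with 0 shared exonic bases. It is therefore not an antisense gene in this annotation. DLX6 lies wholly within the span of DLX6-AS1, with 759 bases of shared exons. Measured between the starts of the Ensembl canonical transcripts, SIX3-AS1 and SIX3 are 214 bases apart, EMX2OS and EMX2 427 bases, NKX2-1-AS1 and NKX2-1 954 bases, and FEZF1-AS1 and FEZF1 1092 bases. The canonical transcript of NR2F1-AS1 starts 2443 bases before NR2F1 and runs away from it. The NR2F1-AS1 gene spans 224871 bases, and an exon of other transcripts lies within the span of NR2F1, with 158 shared exonic bases. ALDH1A3-AS1 starts 39560 bases from ALDH1A3, beyond that gene's end, and shares 1715 exonic bases with it, the most of the 8 loci. The setting for strand in the authors' counting is not given in the sources used here. Reads from such shared bases therefore cannot be told apart between the genes of a pair. The same holds for unspliced coding RNA where exons of the lncRNA lie over introns of the coding gene, as at ALDH1A3 and FEZF1.

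The bases directly before a transcript's start are shown for 3 pairs, because the levels of SOX2-OT and DLX6-AS1 moved apart from those of their coding genes, whereas NR2F1-AS1 and NR2F1 moved together. The windows are 250 bases long, are taken from RefSeq on GRCh38.p14 and are written 5′ to 3′ on the strand of the gene. For NR2F1-AS1 the window that holds no annotated exon is shown, and for SOX2-OT the one of its most upstream RefSeq start. Neither lies at the start of the Ensembl canonical transcript, which is at position 93580779 for NR2F1-AS1 and 180989770 for SOX2-OT. Capitals mark matches to 4 short motifs, searched on both strands. The motif TAATTA is the core recognized by many homeodomain factors and reads the same on both strands. The TATA box was searched as TATAAA. The CCAAT box reads ATTGG when it lies on the other strand. The GC box was searched as GGGCGG. Read from the other strand it is CCGCCC. Matches in the printed windows do not overlap one another.
DLX6-AS1 (minus strand, chr7:97014066-97014315): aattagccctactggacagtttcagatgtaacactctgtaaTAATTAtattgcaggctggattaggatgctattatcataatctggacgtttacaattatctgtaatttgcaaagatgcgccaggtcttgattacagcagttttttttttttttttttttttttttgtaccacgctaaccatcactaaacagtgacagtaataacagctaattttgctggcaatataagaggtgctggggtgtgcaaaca
DLX6 (plus strand, chr7:97005303-97005552): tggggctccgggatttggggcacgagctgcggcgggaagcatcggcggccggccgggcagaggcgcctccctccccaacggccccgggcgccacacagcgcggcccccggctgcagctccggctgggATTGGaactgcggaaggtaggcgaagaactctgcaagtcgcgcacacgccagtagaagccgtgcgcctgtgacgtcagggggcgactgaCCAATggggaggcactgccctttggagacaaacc
SOX2-OT (plus strand, chr3:181056430-181056679): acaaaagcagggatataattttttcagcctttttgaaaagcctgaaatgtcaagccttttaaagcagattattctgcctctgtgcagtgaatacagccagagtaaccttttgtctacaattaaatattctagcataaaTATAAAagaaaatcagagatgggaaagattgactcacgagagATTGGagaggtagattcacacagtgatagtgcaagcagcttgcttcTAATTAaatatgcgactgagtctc
SOX2 (plus strand, chr3:181711675-181711924): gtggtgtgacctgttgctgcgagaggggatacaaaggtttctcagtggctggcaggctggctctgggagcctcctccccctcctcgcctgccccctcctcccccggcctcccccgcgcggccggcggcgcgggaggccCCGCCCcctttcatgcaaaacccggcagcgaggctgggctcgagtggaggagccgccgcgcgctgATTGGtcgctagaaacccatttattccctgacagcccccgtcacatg
NR2F1-AS1 (minus strand, chr5:93579859-93580108): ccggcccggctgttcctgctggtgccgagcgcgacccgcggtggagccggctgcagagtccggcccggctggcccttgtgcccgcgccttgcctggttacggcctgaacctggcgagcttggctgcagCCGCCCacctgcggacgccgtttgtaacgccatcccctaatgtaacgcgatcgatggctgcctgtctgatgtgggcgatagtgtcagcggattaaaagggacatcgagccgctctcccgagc
NR2F1 (plus strand, chr5:93582972-93583221): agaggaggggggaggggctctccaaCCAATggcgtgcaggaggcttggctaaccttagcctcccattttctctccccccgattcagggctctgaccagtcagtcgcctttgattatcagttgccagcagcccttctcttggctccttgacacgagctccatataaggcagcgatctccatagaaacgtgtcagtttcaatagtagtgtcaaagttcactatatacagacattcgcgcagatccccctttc

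The windows before DLX6-AS1 and SOX2-OT were poor in CpG, with 3 and 2 CpG dinucleotides and a GC content of 35.2% and 36.4%. Those before DLX6 and SOX2 held 25 and 20 CpG, with a GC content of 70% and 68.8%. NR2F1-AS1 had 27 CpG and NR2F1 8 in these windows. Few CpG were also found in windows that are not printed, with 2 in the other window of NR2F1 and 5 in that of SIX3-AS1. The median over 35116 RefSeq windows was 11 CpG. TAATTA was found before DLX6-AS1 and SOX2-OT and in a window of NKX2-1 and of EMX2, that is in 4 of the 22 RefSeq windows of the 13 genes that have one, and it was present in 4.35% of all windows. TATAAA was present in 10.7%, CCAAT in 32% and GGGCGG in 42.6% of all windows. The window before NKX2-1-AS1, which is not printed, lies wholly within annotated exons of NKX2-1 and SFTA3. A match is a description of the letters and does not show binding. The part of these sequences in the levels was not tested.

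The totals were 756942 to 10601172 counts per sample, lowest in the WT NPC and highest in the WT D28 samples, and 3 counts corresponded to 0.297 to 3.86 CPM. CPM are the counts of a gene relative to the total of its sample, with the total scaled by edgeR's TMM factor. Floors and intervals cover counting error only. The counts of KDM6A and KDM6B, which include exons outside the deletion, do not report on it: the log2 fold change in dKO cells was -0.54 and -0.13 in NPCs, -0.81 and 0.61 in NPC-P4, and -0.04 and -0.40 in D28 cells. The pluripotency markers POU5F1 and NANOG were listed at 0 counts in all 12 samples, and all 5 NPC markers (SOX1, PAX6, NES, VIM and FABP7) were detected in every sample. Of the 3 GABAergic neuron markers (GAD1, GAD2 and SLC32A1), all were detected in every sample, and their summed level was 346 to 353 CPM in WT D28 and 5.32 to 60.4 CPM elsewhere. The 6 neuron markers summed to 2728 to 2744 CPM in WT D28, 3014 to 3332 CPM in WT NPC-P4 and 523 to 904 CPM in the other groups. The 4 mesenchymal markers summed to 657 to 881 CPM in dKO NPC and dKO NPC-P4 and to 71.5 to 290 CPM elsewhere. COL1A1 was the largest part, with 564 and 666 CPM in dKO NPC and 504 and 518 CPM in dKO NPC-P4. DCN went the other way in NPC-P4, with 1.38 and 0.483 CPM in dKO against 5.59 and 3.54 CPM in WT samples. COL3A1 was at 34 and 41.1 CPM in dKO NPC, below WT NPC-P4 (116 and 124 CPM). The dKO D28 samples differed from each other more than any other pair of replicates, where chi-square over its degrees of freedom was 14.1 against 1.57 to 3.31. The 3 neural crest markers (PAX3, FOXD3 and TFAP2B) summed to 11.5 and 78.3 CPM in dKO D28, with FOXD3 at 0, to 31.8 and 33.8 CPM in dKO NPC-P4 and to at most 3.95 CPM elsewhere. The sum in dKO NPC-P4 was almost all PAX3, at 31.6 and 32.6 CPM. TFAP2B went the other way in NPC-P4, with 0.231 and 0.725 CPM in dKO against 3.29 and 2.28 CPM in WT samples. FOXD3 was at 0 and 0.483 CPM in dKO NPC-P4. In these bulk samples, fewer cells of a type and less RNA per cell cannot be told apart.

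Calls required a change of more than 2-fold and p below 0.05 before adjustment in edgeR's quasi-likelihood test, and 13454 genes whose mean reached 20 counts were tested. Of the 8 lncRNAs, 7 were in that table. SIX3-AS1, with a mean of 14.3 counts, was not. Several lncRNAs passed the filter through the groups where they are high. Between dKO and WT NPCs, 4.43% of the genes were called, and of the 7 lncRNAs 1 was higher and 3 were lower in dKO cells. In NPC-P4, 22.3% of the genes were called, and 1 lncRNA was higher and 4 were lower. In D28 cells, 24.2% of the genes were called, and 3 lncRNAs were higher and 4 were lower. Since the lncRNAs were chosen on these values, nothing is read from their counts. Nor is anything read from their median log2 fold change (-0.85, -1.58 and -1.13 in these 3 comparisons), which mixes genes that rose with genes that fell.

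The same rule was applied within each genotype. Between WT D28 cells and WT NPCs, 24.4% of the genes and 6 of the 7 lncRNAs were called, with 3 in each direction. Between dKO D28 cells and dKO NPCs, 7.15% of the genes and 3 lncRNAs were called. Between passages, 19.8% of the genes and 3 lncRNAs were called in WT cells, and 9.83% and 4 in dKO cells. The difference of the knockout effect between NPC-P4 and NPCs was called for 19.3% of the genes and 3 lncRNAs, and the difference between D28 cells and NPCs for 23.2% and 6.

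The 8 coding genes were all in the table. In NPCs, where 4.43% of all genes were called, 0 rose and 2 fell in dKO cells (NR2F1 and ALDH1A3). In NPC-P4, where 22.3% were called, 2 rose (FEZF1 and SIX3) and 3 fell (NR2F1, NKX2-1 and SOX2). In D28 cells, where 24.2% were called, 3 rose (FEZF1, ALDH1A3 and EMX2) and 3 fell (NR2F1, NKX2-1 and DLX6). Since these genes came in through the chosen lncRNAs, nothing is read from their counts either. Of 17 further genes of the same families or loci, 11 were tested. Beside the same shares of 4.43%, 22.3% and 24.2% of all genes, 2 of them rose and 3 fell in dKO NPCs, 2 rose and 5 fell in dKO NPC-P4, and 3 rose and 5 fell in dKO D28 cells.

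**Figure D1:**
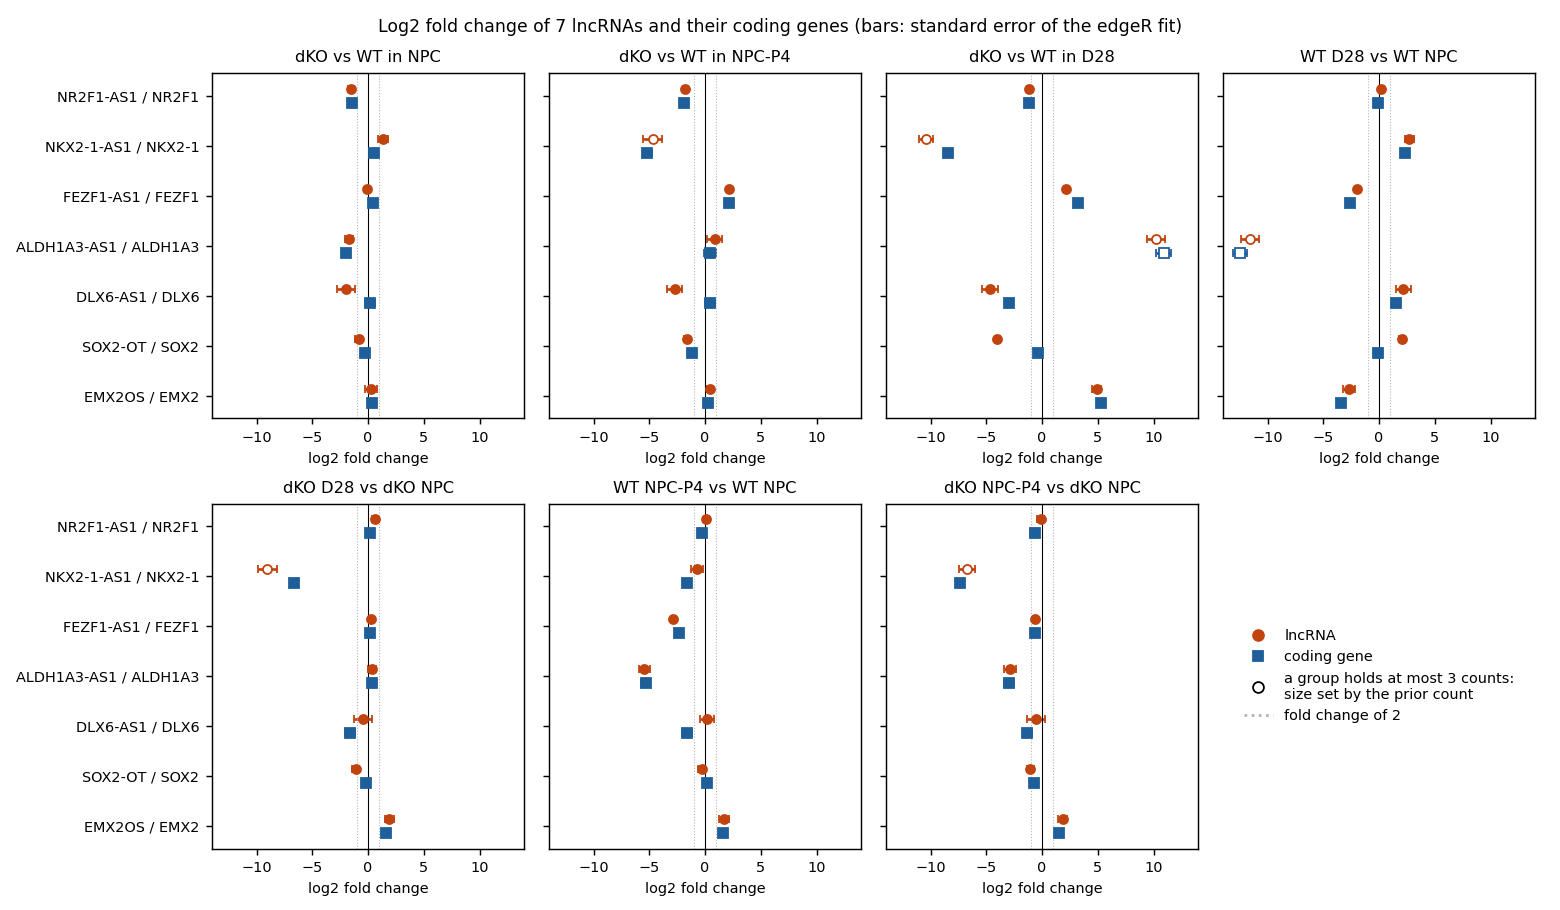
Log2 fold change, on the x axis, of 7 lncRNAs (circles) and their coding genes (squares) in 7 comparisons of 2 groups, with bars for the standard error of the edgeR fit and dotted lines at a fold change of 2. Open symbols mark genes with at most 3 counts in a group, where the position depends on the prior count. For dKO against WT, DLX6-AS1 lies apart from DLX6 in NPC-P4 (-2.71 and 0.43), and SOX2-OT from SOX2 in D28 (-4.02 and -0.34).

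NKX2-1-AS1 and NKX2-1 were high in WT D28 cells and at or near 0 in dKO D28 cells. NKX2-1-AS1 (chr14:36519278-36523016) was at 1.29 and 9.55 CPM in WT NPCs, 15.5 and 16.7 CPM in dKO NPCs, 4.61 and 3.29 CPM in WT NPC-P4, 0.231 and 0 CPM in dKO NPC-P4, 44 and 40.3 CPM in WT D28 and 0 in both dKO D28 samples. The dKO samples were thus the higher ones in NPCs and the lower ones at both other points, and no genotypes overlapped. The coding gene NKX2-1 (chr14:36516392-36521149) was at 66.9 and 70.5 CPM in WT NPCs and 87.3 and 116 CPM in dKO NPCs, at 23 and 21.8 CPM in WT NPC-P4 and 0.462 and 0.725 CPM in dKO NPC-P4, and at 354 and 348 CPM in WT D28 and 1.91 and 0.19 CPM in dKO D28.

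In NPCs, the log2 fold change of NKX2-1-AS1 was 1.33 ± 0.48 (SE). It rests on few counts: the first WT sample held 1 count, and without that sample the value was 0.76, below the fold change of 2. NKX2-1 changed by 0.56 ± 0.21 there, with an adjusted p of 0.204 in edgeR's quasi-likelihood test. In NPC-P4, NKX2-1-AS1 had 27 counts in the WT and 1 in the dKO samples, a ratio of 32.7 with a 95% counting interval from 5.39 to 1340. NKX2-1 fell by 5.17 ± 0.43 on the log2 scale (adjusted p = 9.43e-08, edgeR). In D28 cells, NKX2-1-AS1 had 779 counts in WT and 0 in dKO samples. It was at least 132-fold lower in dKO cells, taking 3 counts over the dKO group as the floor. NKX2-1 fell by 8.47 ± 0.28 (adjusted p = 5.04e-12, edgeR).

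From NPCs to D28 cells, both genes were higher in WT cells, NKX2-1-AS1 by a log2 fold change of 2.71 ± 0.39 and NKX2-1 by 2.35 ± 0.19 (adjusted p = 1.22e-07, edgeR). In dKO cells they were lower. NKX2-1-AS1 was at least 50.8-fold lower, and NKX2-1 fell by 6.69 ± 0.32 (adjusted p = 1.89e-08, edgeR). The 2 genotypes thus moved in opposite directions. SFTA3, a neighbouring gene, was at 26.1 and 24.8 CPM in WT D28 and 0 and 0.19 CPM in dKO D28, and it fell by 7.54 ± 0.53 on the log2 scale (adjusted p = 1.58e-08, edgeR). In NPCs it was at 3.86 and 8.08 CPM in the WT samples against 9.61 and 18.1 CPM in the dKO samples (1.11 ± 0.46, adjusted p = 0.252, edgeR). A second gene identifier with the same symbol is a readthrough over NKX2-1 that shares 147 exonic bases with NKX2-1-AS1, and it was listed at 0 in all samples. NKX2-2, NKX2-4 and NKX2-8, of the same family, were not tested, with at most 2.48 CPM in any sample.

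DLX6-AS1 was highest in WT D28 cells and lower in dKO than in WT cells at each point. DLX6-AS1 (chr7:96955141-97014088) was at 264 and 178 CPM in WT NPCs, 85 and 25.1 CPM in dKO NPCs, 231 and 259 CPM in WT NPC-P4, 35.5 and 39.4 CPM in dKO NPC-P4, 978 and 1004 CPM in WT D28 and 66.4 and 14.6 CPM in dKO D28. All WT samples lay above all dKO samples. DLX6 (chr7:97005553-97011040) was at 16.7 and 16.2 CPM in WT NPCs, 15.5 and 20.9 CPM in dKO NPCs, 6.91 and 4.05 CPM in WT NPC-P4, 9.23 and 5.07 CPM in dKO NPC-P4, 46.9 and 48.1 CPM in WT D28 and 8.84 and 3.42 CPM in dKO D28. The coding gene was separated by genotype only in D28 cells.

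In NPCs, the log2 fold change in dKO cells was -1.99 ± 0.78 for DLX6-AS1 and 0.16 ± 0.45 for DLX6 (adjusted p = 0.918, edgeR). The lncRNA's call there was lost when single samples were left out, and without the second dKO NPC sample the value was -1.35. In NPC-P4 the values were -2.71 ± 0.68 and 0.43 ± 0.42 (adjusted p = 0.427, edgeR). In D28 cells both were lower in dKO cells, DLX6-AS1 with a log2 fold change of -4.65 ± 0.70 and DLX6 with one of -2.999 ± 0.31 (adjusted p = 1.6e-06, edgeR).

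On the way from NPCs to D28 cells, DLX6-AS1 was higher in WT cells by 2.19 ± 0.64 (1.91 without the second WT NPC sample, which ended the call) and DLX6 rose by 1.54 ± 0.36 (log2, adjusted p = 0.00285, edgeR). In dKO cells, DLX6-AS1 differed by -0.47 ± 0.80 and DLX6 fell by 1.62 ± 0.41 (adjusted p = 0.0226, edgeR). Per kb of annotated exon, DLX6-AS1 stood at 53 and 54.4 CPM per kb in WT D28 against 13.6 and 14 CPM per kb for DLX6. In dKO NPCs these levels were 4.61 and 1.36 CPM per kb for the lncRNA and 4.51 and 6.07 CPM per kb for the coding gene. DLX1 and DLX2, of the same family, encode factors active in the same ventral cells. DLX1 fell in dKO cells by 1.84 ± 0.67 in NPCs, where the adjusted p was 0.252, by 3.55 ± 0.67 in NPC-P4 (adjusted p = 0.00366) and by 6.04 ± 0.55 in D28 cells (adjusted p = 5.52e-05, log2 scale, edgeR). DLX2 fell by 2.27 ± 0.39 (adjusted p = 0.00688), 3.29 ± 0.41 (adjusted p = 1.49e-05) and 4.29 ± 0.28 (adjusted p = 1.47e-08, edgeR). DLX5, the gene next to DLX6, rose by 1.03 ± 0.25 in dKO NPCs (adjusted p = 0.0329, edgeR), changed by 0.13 ± 0.21 in NPC-P4 (adjusted p = 0.65, edgeR) and fell by 1.84 ± 0.18 in D28 cells (adjusted p = 3.2e-07, edgeR).

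SOX2-OT departed from SOX2 most clearly in D28 cells. SOX2-OT (chr3:180989762-181836880) was at 45 and 25 CPM in WT NPCs, 16.3 and 20.2 CPM in dKO NPCs, 27 and 26.3 CPM in WT NPC-P4, 7.62 and 10.1 CPM in dKO NPC-P4, 134 and 137 CPM in WT D28 and 11.5 and 5.7 CPM in dKO D28. The WT samples were the higher ones at each point, without overlap. SOX2 (chr3:181711925-181714436) was at 458 and 416 CPM in WT NPCs, 379 and 359 CPM in dKO NPCs, 484 and 508 CPM in WT NPC-P4, 219 and 215 CPM in dKO NPC-P4, 406 and 403 CPM in WT D28 and 352 and 286 CPM in dKO D28. The coding gene thus stayed between 215 and 508 CPM.

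The log2 fold change in dKO D28 cells was -4.02 ± 0.24 for SOX2-OT and -0.34 ± 0.11 for SOX2 (adjusted p = 0.0132, edgeR, below the fold change of 2). In NPC-P4 the values were -1.58 ± 0.28 and -1.19 ± 0.11 (adjusted p = 2.47e-07, edgeR), and after correcting for GC content and length that of SOX2-OT was -0.99. In NPCs they were -0.85 ± 0.35 and -0.24 ± 0.12 (adjusted p = 0.343, edgeR). From NPCs to D28, SOX2-OT was higher in WT cells by 2.04 ± 0.25 and SOX2 changed by -0.11 ± 0.11 (adjusted p = 0.458, edgeR). In dKO cells the values were -1.13 ± 0.35 for SOX2-OT and -0.21 ± 0.11 for SOX2 (adjusted p = 0.275, edgeR). The SOX2-OT value there was -0.67 without the second dKO D28 sample, -0.96 without the second dKO NPC sample and -0.82 after the same correction, each below the fold change of 2. Of the other members of its family, SOX3 fell in dKO NPCs by 1.51 ± 0.21 and in dKO D28 cells by 1.29 ± 0.18, and SOX1 was lower in dKO NPC-P4 at less than a fold change of 2 (-0.80 ± 0.12, adjusted p = 2.95e-05, edgeR).

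The 3 lncRNAs whose levels are given above were highest in WT D28 cells, where the GABAergic neuron markers were highest as well. DLX6-AS1 and SOX2-OT were also higher in WT than in dKO samples in NPCs and NPC-P4, where the summed GABAergic markers were 45.5 to 60.4 CPM and 30.3 to 31.6 CPM in the WT samples against 13.9 to 21.4 CPM and 14.1 to 17.4 CPM in the dKO samples. In NPC-P4, GAD2 and SLC32A1 were lower in the dKO samples but GAD1 was not: it was at 9.54 and 9.62 CPM in the WT samples against 10.4 and 13 CPM in the dKO samples. NKX2-1-AS1 was lower in dKO than in WT samples in NPC-P4 but went the other way in NPCs. There it was at 1.29 and 9.55 CPM in the WT samples against 15.5 and 16.7 CPM in the dKO samples. From WT NPCs to WT NPC-P4 the summed markers were lower, whereas DLX6-AS1 was at 264 and 178 CPM and then at 231 and 259 CPM. The part of GABAergic neurons in the levels of the lncRNAs was not tested.

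EMX2OS and EMX2 were low in WT D28 cells and high in dKO D28 cells. EMX2OS (chr10:117473215-117545068) was at 46.3 and 63.2 CPM in WT NPCs, 68.8 and 66.2 CPM in dKO NPCs, 183.3 and 183.4 CPM in WT NPC-P4, 258 and 229 CPM in dKO NPC-P4, 10.1 and 7.04 CPM in WT D28 and 152 and 349 CPM in dKO D28. The dKO samples lay above the WT samples at each point, by little in NPCs. EMX2 (chr10:117542445-117549546) was at 52.7 and 42.6 CPM in WT NPCs, 55.5 and 62.7 CPM in dKO NPCs, 134 and 146 CPM in WT NPC-P4, 169 and 161 CPM in dKO NPC-P4, 4.49 and 4.36 CPM in WT D28 and 139 and 214 CPM in dKO D28. The 2 genes kept the same order of groups.

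In D28 cells, the log2 fold change in dKO cells was 4.89 ± 0.43 for EMX2OS and 5.31 ± 0.21 for EMX2 (adjusted p = 3.8e-11, edgeR). In NPCs it was 0.26 ± 0.51 and 0.34 ± 0.24 (adjusted p = 0.565, edgeR), and in NPC-P4 0.41 ± 0.34 and 0.24 ± 0.16 (adjusted p = 0.232, edgeR). From NPCs to D28, EMX2OS was lower in WT cells, with a log2 fold change of -2.73 ± 0.54, and EMX2 fell by 3.39 ± 0.28 (adjusted p = 1.56e-07, edgeR). In dKO cells EMX2OS was higher by 1.90 ± 0.40 and EMX2 rose by 1.58 ± 0.19 (adjusted p = 5.14e-05, edgeR). With passage, EMX2OS was higher by 1.70 ± 0.44 in WT and 1.85 ± 0.40 in dKO cells, and EMX2 rose by 1.58 ± 0.21 and 1.48 ± 0.19. The related factor EMX1 was at 99.7 and 92.4 CPM in WT NPC-P4 and 2.31 and 3.14 CPM in dKO NPC-P4. In D28 cells the order was the reverse, with 0.236 and 0.198 CPM in the WT samples against 9.55 and 19 CPM in the dKO samples. EMX1 fell by 5.13 ± 0.31 (adjusted p = 2.56e-09) and rose by 5.88 ± 0.47 (adjusted p = 4.03e-08, log2 scale, edgeR).

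FEZF1-AS1 and FEZF1 were lower in WT cells after passage and after differentiation, and less so or not in dKO cells. FEZF1-AS1 (chr7:122303658-122310119) was at 168 and 186 CPM in WT NPCs, 171 and 168 CPM in dKO NPCs, 25 and 22.8 CPM in WT NPC-P4, 109 and 103 CPM in dKO NPC-P4, 47.8 and 43.2 CPM in WT D28 and 210 and 186 CPM in dKO D28. The genotypes overlapped in NPCs and were apart at both other points. FEZF1 (chr7:122301303-122310691) was at 78.5 and 80 CPM in WT NPCs, 123 and 98.9 CPM in dKO NPCs, 17.1 and 15.2 CPM in WT NPC-P4, 72.9 and 68.1 CPM in dKO NPC-P4, 14.5 and 11.9 CPM in WT D28 and 107 and 146 CPM in dKO D28.

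In NPCs, the log2 fold change in dKO cells was -0.07 ± 0.12 for FEZF1-AS1 and 0.48 ± 0.19 for FEZF1 (adjusted p = 0.219, edgeR). In NPC-P4 it was 2.15 ± 0.13 and 2.13 ± 0.19 (adjusted p = 1.52e-07, edgeR), and in D28 cells 2.12 ± 0.11 and 3.27 ± 0.17 (adjusted p = 3.16e-10, edgeR). In WT cells, FEZF1-AS1 was lower in D28 cells than in NPCs, with a log2 fold change of -1.97 ± 0.12, and FEZF1 fell by 2.59 ± 0.20 (adjusted p = 4.95e-08, edgeR). With passage the WT values were -2.90 ± 0.14 and -2.30 ± 0.21 (adjusted p = 6.04e-07, edgeR). In dKO cells, neither gene was called between NPCs and D28 cells (0.22 ± 0.11 and 0.20 ± 0.16, adjusted p = 0.51 for FEZF1, edgeR) or with passage (-0.67 ± 0.12 and -0.65 ± 0.17, adjusted p = 0.0119 for FEZF1, edgeR). FEZF2, a related factor of cortical neurons, fell in dKO NPC-P4 by 1.48 ± 0.15 and changed by 0.58 ± 0.15 in D28 cells, below the fold change of 2.

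SIX3-AS1 (chr2:44940153-44941916) was close to the limit of detection. It had 1 to 41 counts per sample, at 1.29 and 2.94 CPM in WT NPCs, 5.92 and 4.88 CPM in dKO NPCs, 0.329 and 0.506 CPM in WT NPC-P4, 2.54 and 2.9 CPM in dKO NPC-P4, 4.85 and 3.87 CPM in WT D28 and 6.69 and 3.42 CPM in dKO D28. In NPC-P4 the WT samples held 3 counts and the dKO samples 23, a ratio of 6.33 with a 95% counting interval from 1.91 to 32.9. SIX3 (chr2:44941702-44946071) was at 57.9 and 75.6 CPM in WT NPCs, 97.6 and 91.3 CPM in dKO NPCs, 12.5 and 10.9 CPM in WT NPC-P4, 47.8 and 38.4 CPM in dKO NPC-P4, 75.3 and 71.8 CPM in WT D28 and 72.8 and 51 CPM in dKO D28.

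SIX3 rose in dKO NPC-P4 by 1.89 ± 0.22 on the log2 scale (adjusted p = 2.49e-06, edgeR). It changed by 0.47 ± 0.20 in NPCs (adjusted p = 0.275) and by -0.26 ± 0.16 in D28 cells (adjusted p = 0.194, both edgeR). With passage SIX3 fell by 2.55 ± 0.24 in WT cells (adjusted p = 6.47e-07, edgeR) and by 1.13 ± 0.18 in dKO cells (adjusted p = 0.00048, edgeR), where the value without the second dKO NPC-P4 sample was -0.98. SIX6, a related factor of the eye field, was at 34.7 and 23.5 CPM in WT NPCs and at 0 in both WT D28 samples, against 19.3 and 28.7 CPM in dKO D28.

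NR2F1-AS1 (chr5:93360779-93585649) was the most even of the lncRNAs in WT cells. It was at 28.3 and 27.9 CPM in WT NPCs, 30.3 and 30.4 CPM in WT NPC-P4 and 32.3 and 31.7 CPM in WT D28. In dKO cells it was at 12.6 and 6.97 CPM in NPCs, 8.31 and 9.42 CPM in NPC-P4 and 12.9 and 16.2 CPM in D28. All 6 WT samples lay above all 6 dKO samples. NR2F1 (chr5:93583222-93594611) was at 230 and 206 CPM in WT NPCs, 169 and 196 CPM in WT NPC-P4 and 193 and 208 CPM in WT D28, and at 104 and 53.6 CPM in dKO NPCs, 51.7 and 47.6 CPM in dKO NPC-P4 and 59.5 and 116 CPM in dKO D28. It was separated by genotype in the same way.

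The log2 fold change in dKO cells was -1.53 ± 0.30 for NR2F1-AS1 and -1.46 ± 0.38 for NR2F1 in NPCs (adjusted p = 0.105, edgeR), so the fall of NR2F1 there passed the unadjusted rule only. In NPC-P4 it was -1.77 ± 0.21 and -1.88 ± 0.34 (adjusted p = 0.00212, edgeR), and in D28 cells -1.13 ± 0.18 and -1.18 ± 0.31 (adjusted p = 0.0126, edgeR). Without the first dKO D28 sample the D28 values were -0.97 and -0.78, below the fold change of 2, as they were after correcting for GC content and length (-0.82 and -0.99). The same correction gave -0.97 for NR2F1-AS1 in NPC-P4. Neither gene was called with differentiation or passage in either genotype. NR2F2, the other COUP-TF gene, was not called between genotypes at any point, with 17.4 and 107 CPM in the 2 dKO D28 samples. Its samples were still apart by genotype in NPCs, with 68.2 and 53.6 CPM in WT against 21.4 and 11.8 CPM in dKO. In NPC-P4 they were apart in the other direction, with 37.5 and 39.2 CPM in WT against 84.2 and 73.7 CPM in dKO.

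ALDH1A3-AS1 and ALDH1A3 went from high levels in WT NPCs to 0 counts in WT D28 cells. ALDH1A3-AS1 (chr15:100892343-100919391) was at 107 and 84.4 CPM in WT NPCs, 42.2 and 16 CPM in dKO NPCs, 2.3 and 2.02 CPM in WT NPC-P4, 4.85 and 2.9 CPM in dKO NPC-P4, 0 in both WT D28 samples and 27.7 and 45.8 CPM in dKO D28. WT samples were the higher ones in NPCs and the lower ones at the other points. ALDH1A3 (chr15:100877714-100916626) was at 202 and 158 CPM in WT NPCs, 65.1 and 27.9 CPM in dKO NPCs, 3.95 and 4.81 CPM in WT NPC-P4, 7.15 and 4.59 CPM in dKO NPC-P4, 0 in both WT D28 samples and 51.6 and 67.7 CPM in dKO D28.

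In NPCs, the log2 fold change in dKO cells was -1.71 ± 0.40 for ALDH1A3-AS1 and -1.95 ± 0.32 for ALDH1A3 (adjusted p = 0.0125, edgeR). In NPC-P4 it was 0.85 ± 0.72 and 0.41 ± 0.54 (adjusted p = 0.558, edgeR). In D28 cells, ALDH1A3-AS1 had 357 counts in dKO and 0 in WT samples and was at least 234-fold higher in dKO cells, and ALDH1A3, with 572 and 0 counts, was at least 374-fold higher (adjusted p = 4.13e-07, edgeR). From WT NPCs to WT D28 cells the lncRNA was at least 572-fold lower and the coding gene at least 1075-fold lower (adjusted p = 2.15e-07, edgeR). In dKO cells the same step gave 0.36 ± 0.39 and 0.37 ± 0.32 on the log2 scale (adjusted p = 0.54 for ALDH1A3, edgeR). ALDH1A1, another enzyme that makes retinoic acid, was listed at 0 in the WT D28 and WT NPC-P4 samples and was at 20.8 and 77.6 CPM in dKO D28 and 21.2 and 22.2 CPM in dKO NPC-P4. ALDH1A2 was at most 2.17 CPM in any sample and was not tested.

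**Figure D2:**
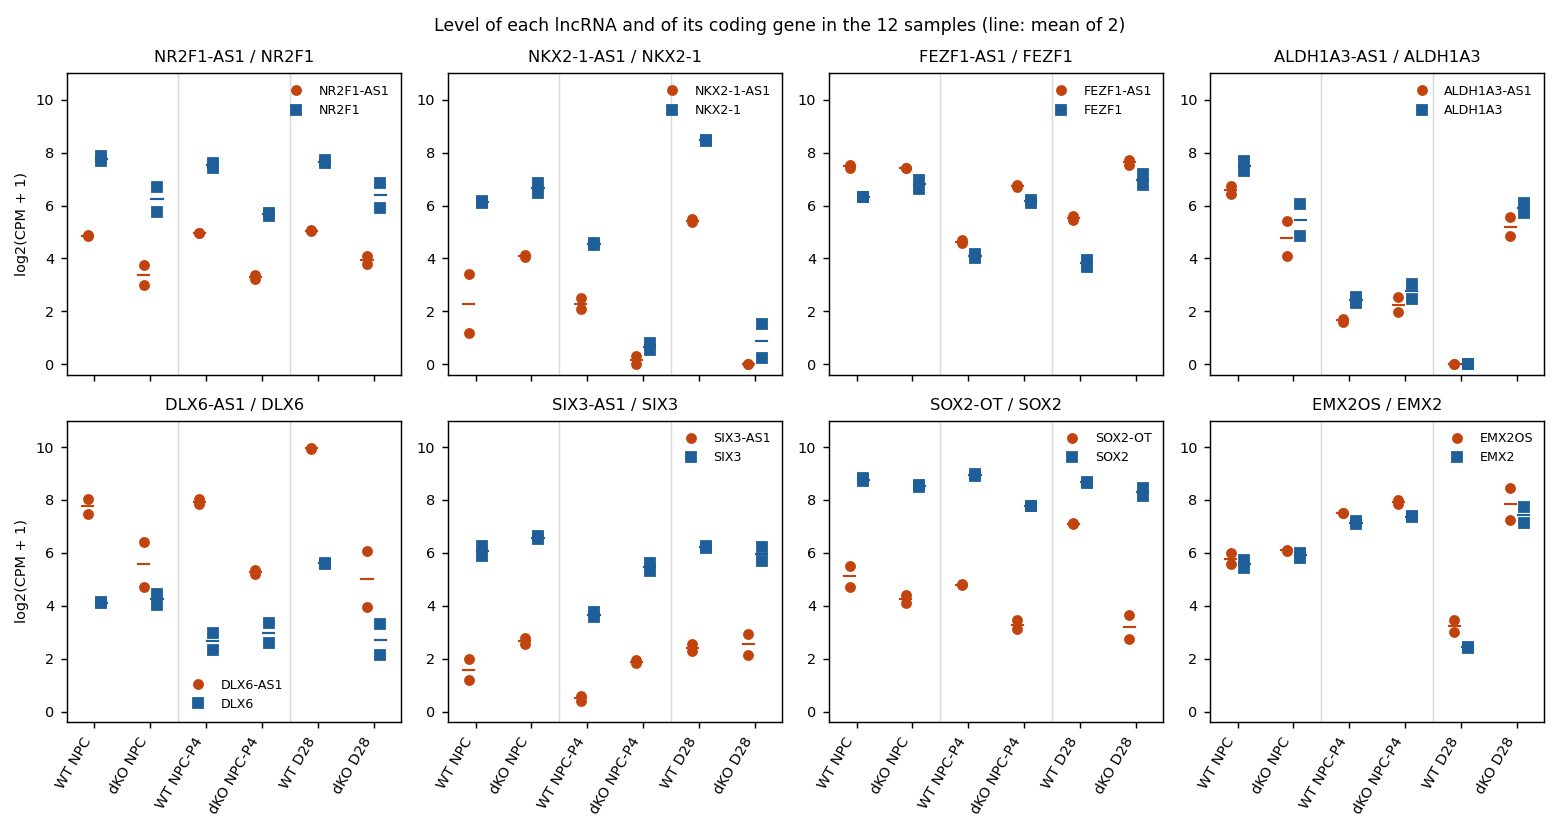
Level of each lncRNA (circles) and its coding gene (squares) in the 12 samples as log2(CPM + 1) on the y axis, with the 6 groups on the x axis and a line at the mean of 2 samples. NKX2-1-AS1 is at 0 in dKO D28, where NKX2-1 is at 1.91 and 0.19 CPM, ALDH1A3-AS1 and ALDH1A3 are both at 0 in WT D28, and SOX2-OT rises to 134 and 137 CPM in WT D28 while SOX2 is at 406 and 403 CPM there.

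The share of a pair's counts that fell on the lncRNA shows whether the members of a pair moved in proportion. The share depends on the length of the genes, so only its change between samples is read. Reads that cannot be told apart between the genes of a pair also enter it, as at ALDH1A3 and FEZF1. Intervals are exact 95% binomial intervals, and samples with fewer than 20 counts for a pair were left out of the ranges. NR2F1-AS1 made up 10.8% to 17.8% of the counts of its pair over 12 samples, ALDH1A3-AS1 29.6% to 40.4% over 9 samples, EMX2OS 46.8% to 69.1%, FEZF1-AS1 56% to 78.4% and SIX3-AS1 2.17% to 8.41%. NKX2-1-AS1 made up 1.89% (0.0478% to 10.1%) in the first WT NPC sample and up to 16.7% (9.42% to 26.4%) in the first WT NPC-P4 sample.

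The shares of DLX6-AS1, SOX2-OT and FEZF1-AS1 differed between groups. DLX6-AS1 made up 91.7% to 98.5% of the counts of its pair in the 6 WT samples and 54.5% to 88.6% in the 6 dKO samples. The WT and dKO ranges do not overlap, although the interval of the highest dKO sample (83.1% to 92.8%) meets that of the lowest WT sample (87.7% to 94.7%). SOX2-OT made up 24.9% (23.6% to 26.1%) and 25.4% (24.3% to 26.6%) of its pair in WT D28 and 1.96% to 8.95% in the other 10 samples. FEZF1-AS1 made up 76.7% and 78.4% of its pair in WT D28 and 56% to 69.9% in the other 10 samples. Within the dKO D28 group its share differed between the samples, with 66.2% (63.6% to 68.8%) in the first and 56% (53.6% to 58.3%) in the second.

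**Figure D3:**
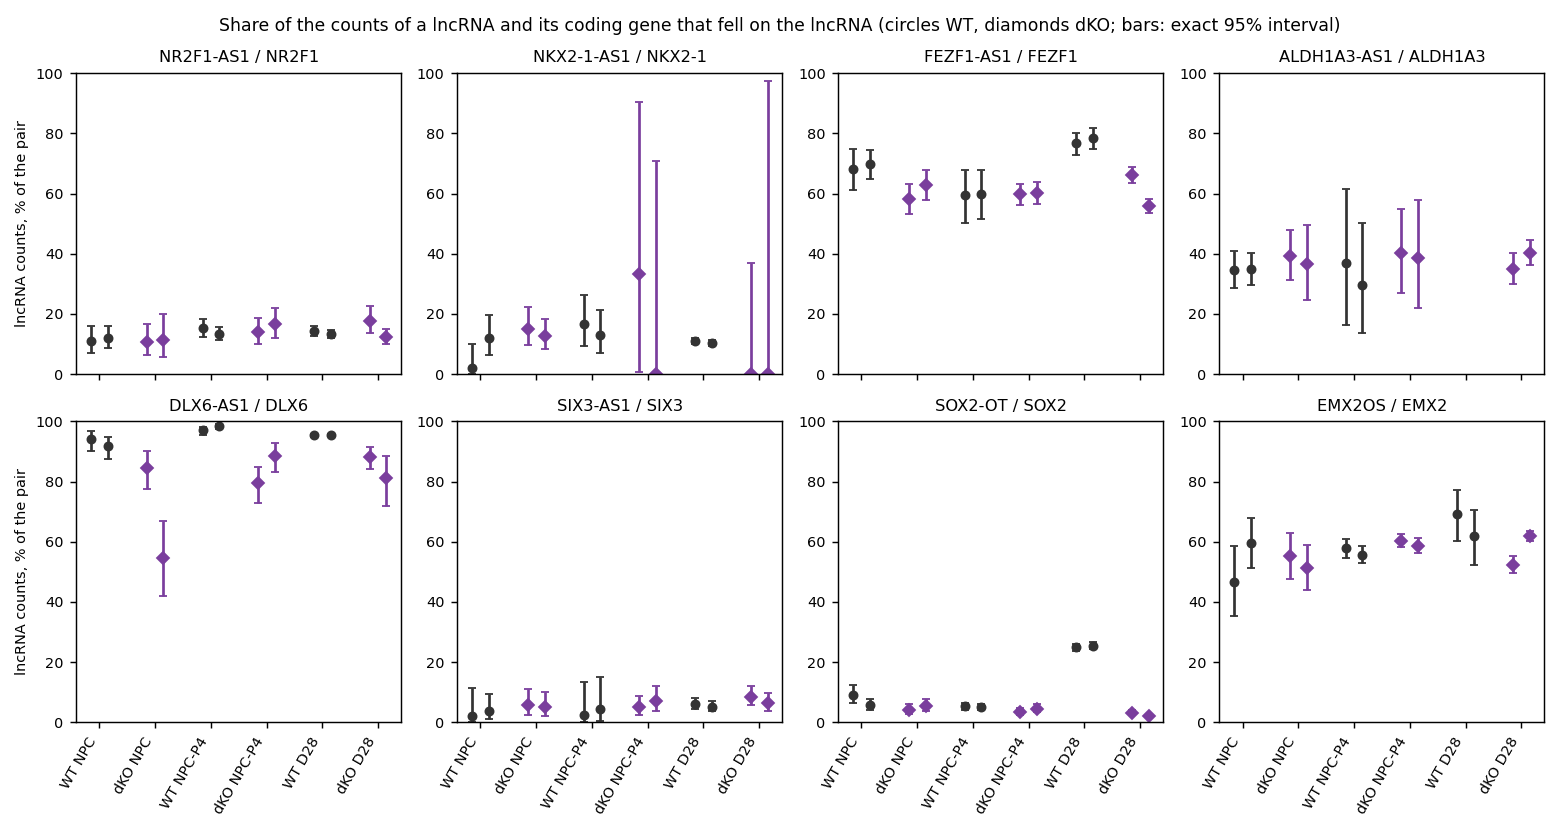
Share of the counts of a lncRNA and its coding gene that fell on the lncRNA, in percent on the y axis, for each of the 12 samples (circles WT, diamonds dKO) with exact 95% binomial intervals. The share of DLX6-AS1 is 91.7% to 98.5% in WT and 54.5% to 88.6% in dKO samples, and that of SOX2-OT reaches 25.4% in WT D28 only. Samples with 0 counts for both genes of a pair have no point.

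The genes with the most similar pattern were ranked by Pearson's r of log2(CPM + 1) over the 6 group means, among 13453 genes (13454 for SIX3-AS1). With 6 points, 73 to 534 genes reached an r above 0.9 with a given lncRNA, so the ranks are a description. ALDH1A3 ranked 1 for ALDH1A3-AS1 (r = 0.998), EMX2 ranked 2 for EMX2OS (r = 0.994), NKX2-1 ranked 7 for NKX2-1-AS1 (r = 0.962) and NR2F1 ranked 16 for NR2F1-AS1 (r = 0.970). SIX3 ranked 72 for SIX3-AS1 (r = 0.906) and FEZF1 237 for FEZF1-AS1 (r = 0.943). DLX6 ranked 2532 for DLX6-AS1 (r = 0.653) and SOX2 2553 for SOX2-OT (r = 0.610). The coding gene was thus near the top for 4 lncRNAs and far down the list for DLX6-AS1 and SOX2-OT.

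The 3 most similar genes of SOX2-OT were GAD2, which makes GABA (r = 0.997), GRIPAP1 (r = 0.992) and ZNF641 (r = 0.991). Those of DLX6-AS1 were CPEB3, NSFL1C and CDC42BPA (r = 0.991 to 0.996), and those of NKX2-1-AS1 were NT5C3B, SFTA3 and LDB1 (r = 0.978 to 0.990). LRCH2, SLC24A5 and ANOS2P ranked highest for NR2F1-AS1 (r = 0.985 to 0.991), GGA2, NCBP3 and CTDSPL for FEZF1-AS1 (r = 0.996 to 0.997), and SORCS2, VMAC and PIAS3 for SIX3-AS1 (r = 0.980 to 0.999). ATAD5 and PLCH1 followed ALDH1A3 for ALDH1A3-AS1, and a gene without a symbol in GENCODE v44 and ZNF747 stood beside EMX2 for EMX2OS.

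By mean CPM, the order of the groups differed among the lncRNAs. WT D28 was the highest group for NR2F1-AS1, NKX2-1-AS1, DLX6-AS1 and SOX2-OT, and dKO D28 the highest for FEZF1-AS1 and EMX2OS. The top of the order overlapped with the next group for FEZF1-AS1, EMX2OS and SIX3-AS1. For EMX2OS these groups were dKO D28 and dKO NPC-P4. For FEZF1-AS1, WT NPC overlapped with both dKO D28 and dKO NPC. The dKO D28 samples (210 and 186 CPM) lay above the dKO NPC samples (171 and 168 CPM). For SIX3-AS1, dKO D28 overlapped with both dKO NPC and WT D28. The dKO NPC samples (5.92 and 4.88 CPM) lay just above the WT D28 samples (4.85 and 3.87 CPM). For ALDH1A3-AS1, WT NPC was the highest group, and dKO D28 and dKO NPC overlapped below it. At the lower end, the 3 dKO groups overlapped for DLX6-AS1, and so did dKO NPC-P4 and dKO D28 for SOX2-OT.

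Exons of a few further genes overlap the lncRNAs. DNAJC19, a mitochondrial import factor, shares 13 exonic bases with SOX2-OT and was at 14 to 30.7 CPM, with no call between genotypes (log2 fold change 0.06 ± 0.19 in D28 cells, adjusted p = 0.808, edgeR). LRRK1 shares 65 exonic bases with ALDH1A3-AS1 and was at most 3.99 CPM. An unnamed small RNA gene that shares 207 bases with DLX6-AS1 on the other strand was highest in WT D28, at 20.3 and 21.4 CPM, and an unnamed lncRNA that shares 258 bases with EMX2OS was at 0.0991 to 13.6 CPM.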

How the data were processed

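RNA sequencing of 12 samples in 6 groups of 2 was used, grouped by the sample labels. The authors extracted RNA with TRIzol, prepared TruSeq libraries, sequenced them on a NextSeq instrument and mapped the reads to hg38. The submitters' processing notes name HISAT2 2.0.4, SAMtools 1.3.1, HTSeq 0.6.0 and DESeq 1.18.1. What the authors deposited are raw counts for 58302 Ensembl genes, with no scaling and no filter. The annotation release and the setting for strand are not given in the sources used here, and the study's later filter, its correction for GC content and length and its test are not part of the counts. Of the genes, 57532 (98.7%) were found by identifier in GENCODE v44, holding 99.8% of the counts.

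In R 4.3.3, TMM factors (0.937 to 1.06) scaled the counts, and edgeR 4.0.16 (quasi-likelihood, robust option) was fitted once to the 6 groups over all 13454 genes whose mean reached 20 counts. Calls followed the study's rule, more than 2-fold and p below 0.05 before adjustment, and adjusted p-values are Benjamini-Hochberg over all genes tested in a comparison. The standard error is the log2 fold change divided by the square root of F. For 1 value in 2 against 2 samples, the smallest two-sided p of an exact permutation test is 0.333. On simulated counts for the 13454 genes, with 100 genes changed by a log2 fold change of 2, 96% to 100% of them were recovered per comparison, and 0.241% to 1.2% of the unchanged genes were called. Totals of 756942 to 10601172 set the precision. Replicate pairs had no identical counts.

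The lncRNAs, the gene lists and the tests were chosen with earlier results of these data known. Named genes are the 8 lncRNAs, their coding genes, 17 listed genes of the same families or loci, the called genes at the ends of a list of other lncRNAs, the 3 most similar genes per lncRNA, genes with overlapping exons, KDM6A and KDM6B. Same-numbered replicates did not deviate together (mean correlation 0.0176 over 15 pairs of groups, from -0.0582 to 0.194), so no pairing was used. Alternatives were DESeq2 1.42.0, adjusted calls, filters of at least 1 count in any or 10 in every sample, a fit of only the groups compared, correcting for GC content and length, a replicate block and leaving out each sample. RefSeq promoter windows were matched by symbol for 13 of the 16 genes. FEZF1-AS1, SIX3 and EMX2OS had no window.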

Additional observations from a re-analysis of the deposited data

Results flagged for a closer look

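The knockout effect on several coding genes differed between time points when the difference of the effects was itself tested as a contrast in edgeR's quasi-likelihood fit, with Benjamini-Hochberg adjustment. These genes came in through the chosen lncRNAs, so the p-values are not free of that choice. All values are the later knockout effect minus the effect in NPCs, on the log2 scale. For NKX2-1 the difference was -5.73 in NPC-P4 (adjusted p = 1.15e-06) and -9.03 in D28 cells (adjusted p = 2.11e-10). For FEZF1 it was 1.65 (adjusted p = 0.000358) and 2.79 (adjusted p = 9.37e-07). For ALDH1A3 it was 2.36 in NPC-P4 (adjusted p = 0.0227) and 12.86 in D28 cells (adjusted p = 1.95e-06), where the size depends on the prior count because the WT D28 samples held 0 counts. For SIX3 it was 1.42 in NPC-P4 (adjusted p = 0.00277). For DLX6 it was -3.16 in D28 cells (adjusted p = 0.000596), and for EMX2 it was 4.97 in D28 cells (adjusted p = 7.78e-08). In D28 cells, both dKO samples lay on the same side of both WT samples for NKX2-1, FEZF1, ALDH1A3, DLX6 and EMX2.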

How the results depend on the processing

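Of the 7 lncRNAs and 8 coding genes tested, the number called was 6 for dKO against WT NPCs, 10 for NPC-P4, 13 for D28, 11 for WT D28 against WT NPCs, 6 for dKO D28 against dKO NPCs, 9 for passage in each genotype, and 7 and 11 for the differences of the knockout effect in NPC-P4 and D28. With adjusted p-values the first count was 2. When every sample had to hold 10 counts or more, fewer genes were tested, and the counts were 3 for dKO against WT NPCs, 7 for WT D28 against WT NPCs, 5 for passage in dKO cells, and 3 and 7 for the differences in NPC-P4 and D28. Leaving out each sample gave 4 to 6, 10, 11 to 13, 10 to 11, 5 to 9, 9 to 10 (WT passage), 7 to 9 (dKO passage), 6 to 9 and 10 to 11. The fit with a replicate block gave the same counts as without it, 10 for NPC-P4 among them, and changed no call. Of 1610 alternative values of the 82 called fold changes, 1557 kept their call, 53 kept their direction without passing the rule, and 0 changed direction. Many of these alternatives could hardly change a direction. Adjusting p leaves the fold change as it was, and leaving out a sample of a group not compared hardly alters it. The lncRNAs were also chosen on these data, so the totals are a description. Most of the 53 belong to DLX6-AS1 in NPCs and in its D28 difference, to SOX2-OT within dKO cells and to the NR2F1 pair. The cause was not tested. The WT NPC samples had the lowest totals, and levels under 3.86 and 2.2 CPM there are below 3 counts.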

Other observations

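Other lncRNAs named after or known beside developmental genes, neural and not, were listed from general knowledge. Of these 69 genes, 64 were in the files and 14 passed the filter on counts. In dKO against WT NPCs, 1 rose and 2 fell, in NPC-P4 2 rose and 7 fell, and in D28 cells 2 rose and 2 fell, where 4.43%, 22.3% and 24.2% of all genes were called. LINC00461, a brain-enriched lncRNA, was at 337 and 360 CPM in WT NPC-P4 and 20.3 and 19.8 CPM in dKO NPC-P4. It fell in dKO cells by 2.00 ± 0.43 (SE, log2) in NPCs, where the adjusted p was 0.0515, and by 4.12 ± 0.35 in NPC-P4 (adjusted p = 1.68e-05, edgeR), and it changed by 0.25 ± 0.30 in D28 cells (adjusted p = 0.513, edgeR). PANTR1, which lies beside the neural factor gene POU3F3, fell by 1.48 ± 0.62 in dKO NPCs (adjusted p = 0.317) and by 3.78 ± 0.59 in dKO NPC-P4 (adjusted p = 0.00126), and changed by 0.09 ± 0.56 in D28 cells (adjusted p = 0.912, edgeR). SOX1-OT, which overlaps the SOX1 locus, was at 54.9 and 50.9 CPM in WT D28 and 4.78 and 2.66 CPM in dKO D28, and fell by 3.86 ± 0.23 there and by 4.07 ± 0.37 in NPC-P4. SOX1 was lower in dKO NPC-P4 as well, at less than a fold change of 2 (-0.80 ± 0.12, adjusted p = 2.95e-05, edgeR). In D28 cells SOX1 differed far less than SOX1-OT, with 142 and 141 CPM in the WT samples against 115 and 112 CPM in the dKO samples.

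RMST, a lncRNA of neural progenitors, rose in dKO cells by 1.17 ± 0.48 in NPCs (adjusted p = 0.239) and by 1.93 ± 0.27 in NPC-P4 (adjusted p = 2.07e-05, edgeR). In D28 cells it was lower in dKO samples, at less than a fold change of 2 (-0.79 ± 0.23, adjusted p = 0.00871, edgeR), with 28.4 and 28.8 CPM in the WT samples against 10.5 and 22.1 CPM in the dKO samples. KLF3-AS1 rose by 1.35 ± 0.29 in NPC-P4 and 1.58 ± 0.28 in D28 cells. MIAT, an abundant lncRNA of neurons, was at 2011 and 1964 CPM in WT D28 and 647 and 186 CPM in dKO D28 and fell by 2.26 ± 0.52. CRNDE was at 2.13 and 3.27 CPM in WT D28 and 14.6 and 16.9 CPM in dKO D28 and rose by 2.52 ± 0.28. The 6 neuron markers summed to 2728 to 2744 CPM in WT D28 and 523 to 893 CPM in dKO D28, and their part in these levels was not tested.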
